A study of Macaca mulatta with 2 samples.

Results

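The genes described here are the heat shock, chaperone and unfolded protein response genes of the macaque prefrontal cortex. They were chosen by symbol, with no filter on their counts, though earlier results of these data were known. The 53 genes fold proteins in the cytosol, the mitochondrion and the endoplasmic reticulum, sense unfolded proteins, or are induced by mild cold. Of these 53 genes, 51 were found by symbol in the count table of 33618 genes, and all 51 had at least 1 CPM (reads scaled to a common library size) in CON 1 or SEV 1, the minimum for a ratio. HSPA1A and HSPA1B, the stress-inducible HSP70 genes, are near-identical copies and were not analysed here under those symbols.

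The data came from 2 rhesus macaques (Macaca mulatta), each 28 days old by the labels. The control animal gave the library CON 1, and its handling before sampling is not given in the sources used here. The animal behind SEV 1 had inhaled 2.5 to 3% sevoflurane, a volatile anesthetic. By the labels each exposure lasted 4 h, on about postnatal days 7, 14 and 28. The methods place the later exposures at greater ages. They add that induction used a higher concentration, that the anesthetic was given in pure oxygen and that exposed animals were intubated. The methods state that the cortex was taken directly after the last exposure, that the control group was female and the exposed group of both sexes, and that a warm box maintained the temperature of the animals. The design text counts 3 samples per group, of which 1 per group was analysed here. With 1 library per group no test between conditions could be fitted, and every difference compares these 2 libraries only.

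Reads on genes numbered 16960880 for CON 1 and 9839105 for SEV 1. Levels are CPM on library sizes scaled by edgeR's TMM factors, and ratios are log2 of sevoflurane over control with a prior count of 2. Ratios carry 95% Clopper-Pearson intervals, which cover counting error and not the spread between animals. Transcript lengths were not used here, so levels of different genes are not ranked against each other. All 10 cortical neuron markers had reads in both libraries, and they summed to 4828 CPM (control) and 4694 CPM (sevoflurane). By the interval 6 of these 10 were lower and 3 higher in the sevoflurane library, so the near-equal sums hold shifts in both directions. The 10 myelin markers summed to 4255 and 2066 CPM, the 8 astrocyte markers to 6618 and 4604 CPM, the 6 mural cell markers to 433 and 500 CPM, and the 4 red blood cell genes, 1 of them at 0 in the control, to 24.8 and 80.8 CPM. In bulk tissue, fewer cells of a type and less RNA per cell cannot be told apart. The 7 Y-linked genes held 3 control and 4308 sevoflurane reads, so sex, animal and exposure cannot be told apart either.

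Heat shock proteins are chaperones that hold or refold proteins that have lost their shape. In the cytosol, heat shock factors bind the promoters of chaperone genes when unfolded proteins accumulate, and HSP70 and HSP90 then work in turn with cochaperones that set their ATP cycle and choose their clients. In the endoplasmic reticulum, unfolded proteins are sensed by IRE1, PERK and ATF6, which raise the chaperones of that compartment and slow translation. RBM3 and CIRBP are RNA-binding proteins that increase when body temperature falls.

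Few of the chaperone and unfolded protein response genes differed by 2-fold or more between the 2 libraries. Their median log2 ratio was -0.15, against -0.0048 over the 18050 genes tested, and their interquartile range was 0.43, against 0.71. By 2-fold or more, with an interval that excluded equal expression, 1 gene was higher in the sevoflurane library (DDIT3) and 1 was lower (HSPE1). By the same rule 7.56% of all genes tested were higher and 5.47% were lower. At 1.5-fold, DDIT3, BAG3 and HSPB1 were higher, which is 3 of 51 genes against 14.4% of all genes tested. DNAJA1, HSP90AA1, CCT2, CCT4, HSPE1 and CIRBP were lower, which is 6 of 51 against 11.9%. Genes with few reads spread more by counting error. Neither the interquartile ranges nor these shares were matched to the depth of the members, so no smaller spread than that of equally deep genes is shown.

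Small differences leaned to the lower side. The interval excluded equal expression for 26 genes that were lower and 7 that were higher in the sevoflurane library, and it did not for 18. With a stricter interval 23 were lower and 4 higher. Over all genes tested, 28.1% were lower and 28.4% higher in this sense. The members were more deeply read than most genes, with a median of 1517 control reads against 275, and deeper genes have narrower intervals. Where CON 1 or SEV 1 reached 5 CPM, 25 of 47 members were lower against 32.8% of all genes at that level. There 6 of 47 were higher, against 30.3%. This minimum does not match the depth of the members. A share among genes as deeply read was not computed, so no lean beyond that of such genes is shown. Together the 51 genes took 0.844% of the control reads (95% interval 0.840 to 0.849%) and 0.718% of the sevoflurane reads (0.713 to 0.723%). In sum they stood at 8520 CPM (control) and 7114 CPM (sevoflurane).

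**Figure D1:**
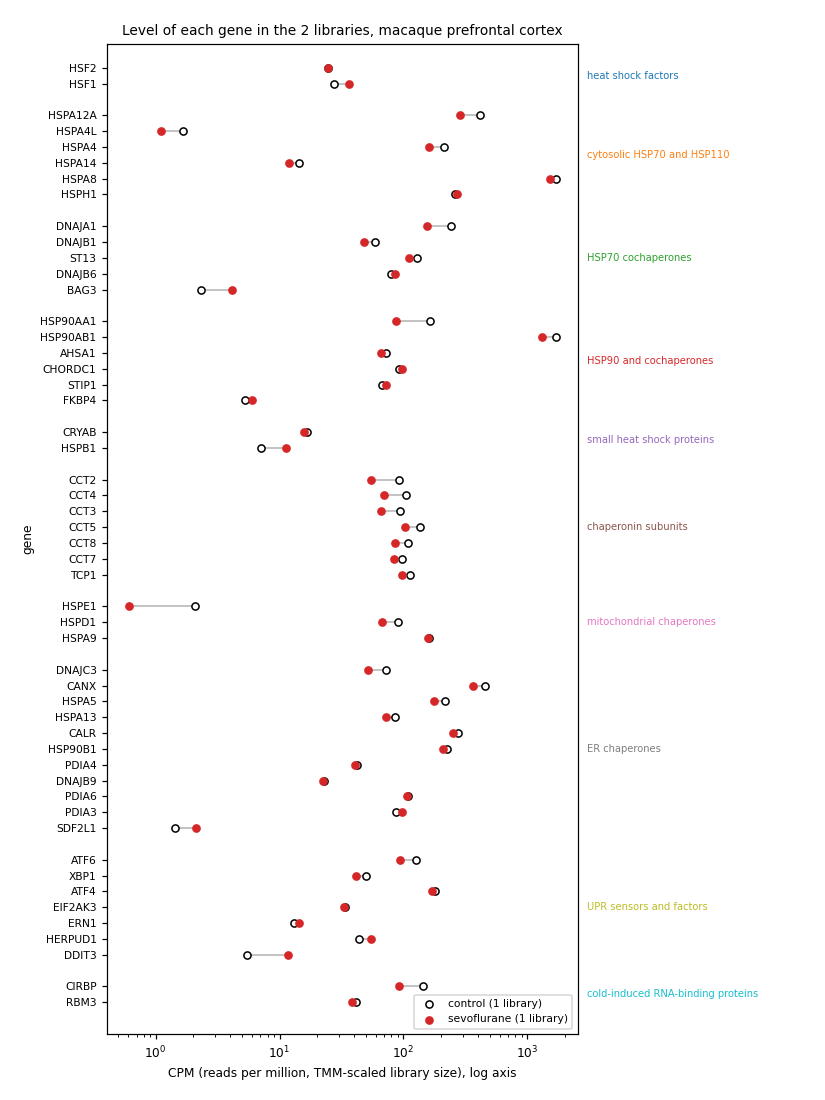
Level of each of the 51 genes in CPM (log axis) in the control library (open points) and the sevoflurane library (red points), 1 library each, grouped by role. Most pairs of points nearly touch, while HSPE1, HSP90AA1, CCT2 and DNAJA1 lie to the left and DDIT3 and BAG3 to the right in the sevoflurane library. CPM is not corrected for transcript length, so rows are not to be ranked against each other.

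Of the transcription factors, HSF1 was higher and HSF2 had the same level in both libraries. HSF1, the main regulator of the heat shock response, had 466 control and 360 sevoflurane reads, or 27.7 and 36.3 CPM. Its log2 ratio was 0.38 (0.18 to 0.59). HSF2, a related factor that can form trimers with HSF1, had 416 and 246 reads, or 24.8 CPM in both libraries, and a ratio of 0.00 (-0.23 to 0.23). For every 100 HSF1 reads, HSF2 had 89.3 in CON 1 and 68.3 in SEV 1. This comparison does not depend on the scaling, and its log2 difference was -0.39 (-0.70 to -0.08).

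HSPA8, the constitutive HSP70 that also uncoats clathrin vesicles, had 28467 control and 15218 sevoflurane reads. Its levels were 1694 and 1532 CPM and its log2 ratio was -0.14 (-0.17 to -0.12), so that it held 90.5% of the control level. HSPH1 encodes the HSP110 that exchanges nucleotide on HSP70 and is itself strongly heat-inducible. It had 4358 and 2705 reads, or 259 and 272 CPM, and its log2 ratio of 0.07 was the highest of this group. The interval of 0.001 to 0.14 barely excluded equal expression, and with the control sampled down (0.05) or a minimum of 1 read it did not. HSPA12A, a distant HSP70 relative found in brain, went from 6922 to 2817 reads (412 to 284 CPM) and had the lowest ratio of the group, -0.54 (-0.60 to -0.47). HSPA4, another HSP110, was also lower, with 3573 and 1609 reads (-0.39), while the ribosome-associated HSPA14 (-0.26, interval -0.59 to 0.06) and the HSP110 relative HSPA4L (-0.53, interval -1.74 to 0.46) were not distinguishable from equal expression at their depth. HSPA4L had 28 and 11 reads. The 6 genes of this group had a median of -0.32. HSPA8 supplied 65.3% of their control reads and 67.7% of their sevoflurane reads, so the ratio of the summed reads, -0.20, follows that gene.

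A protein-coding gene that lies within the span of HSPA1L in the RefSeq gene table, LOC720054, was looked up after the HSPA1 symbols gave no match. It had 594 control and 341 sevoflurane reads, or 35.3 and 34.3 CPM, with a log2 ratio of -0.04 (-0.24 to 0.15). The table gives it no other name, and it was not counted among the members.

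The HSP70 cochaperones went in opposite directions. DNAJA1, a J-domain protein that brings clients to HSP70, went from 4035 to 1531 reads (240 to 154 CPM), a log2 ratio of -0.64 (-0.73 to -0.55). DNAJB1, the heat-inducible J-domain protein, went from 993 to 481 reads and was lower by less (-0.29, interval -0.45 to -0.13). ST13, also called HIP, which stabilizes HSP70 with its client, was at -0.23. DNAJB6, which suppresses aggregation of polyglutamine proteins, was at 0.10 with an interval that included 0. BAG3, a nucleotide exchange factor that directs clients of HSP70 to autophagy and a well-known HSF1 target, was higher. It had 39 control and 41 sevoflurane reads, or 2.32 and 4.13 CPM, with a ratio of 0.79 and a wide interval (0.16 to 1.502), which included equal expression with the control sampled down. For every 100 HSPA8 reads, DNAJA1 had 14.2 in CON 1 and 10.1 in SEV 1, and BAG3 had 0.137 and 0.269.

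HSP90AA1, the inducible cytosolic HSP90, had the lowest ratio after HSPE1. It had 2773 control reads and 856 sevoflurane reads, or 165 and 86.2 CPM. The log2 ratio of -0.94 (-1.05 to -0.83) lay just short of 2-fold, and 6.53% of all genes tested had a ratio as low. Its constitutive paralog HSP90AB1 went from 28672 to 12995 reads (1706 to 1309 CPM), a ratio of -0.38 (-0.41 to -0.35). For every 100 HSP90AB1 reads, HSP90AA1 had 9.67 in CON 1 and 6.59 in SEV 1, a log2 difference of -0.55 (-0.67 to -0.44). How reads shared between the paralogs were counted is not given in the sources used here. None of the 4 HSP90 cochaperones listed had an interval that excluded equal expression. They were STIP1, which links HSP70 to HSP90 (0.10, interval -0.04 to 0.23), CHORDC1, an HSP90-binding protein (0.06, interval -0.05 to 0.18), AHSA1, the activator of the HSP90 ATPase (-0.13, interval -0.27 to 0.00), and the immunophilin FKBP4. With 88 and 59 reads FKBP4 had a much wider interval (0.18, interval -0.32 to 0.67).

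The small heat shock proteins hold unfolding proteins without using ATP. HSPB1 had 120 control and 111 sevoflurane reads, or 7.14 and 11.2 CPM, and was higher with a log2 ratio of 0.64 (0.26 to 1.03). CRYAB, the alpha-B crystallin that is abundant in oligodendrocytes, had 280 and 155 reads, or 16.7 and 15.6 CPM, and a ratio of -0.09 (-0.39 to 0.19). The 10 myelin markers were all lower, with a median of -1.26, and their part in the CRYAB ratio was not tested. HSPB1 is known from vessels and glia. The 7 endothelial markers summed to 205 and 208 CPM, and of the 6 mural markers 4 were higher and 2 were lower. Of the 8 astrocyte markers 6 were lower and 1 was higher, and of the 8 microglial markers 1 was lower and 4 were higher. The part of these cell types in the HSPB1 ratio was not tested.

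**Figure D2:**
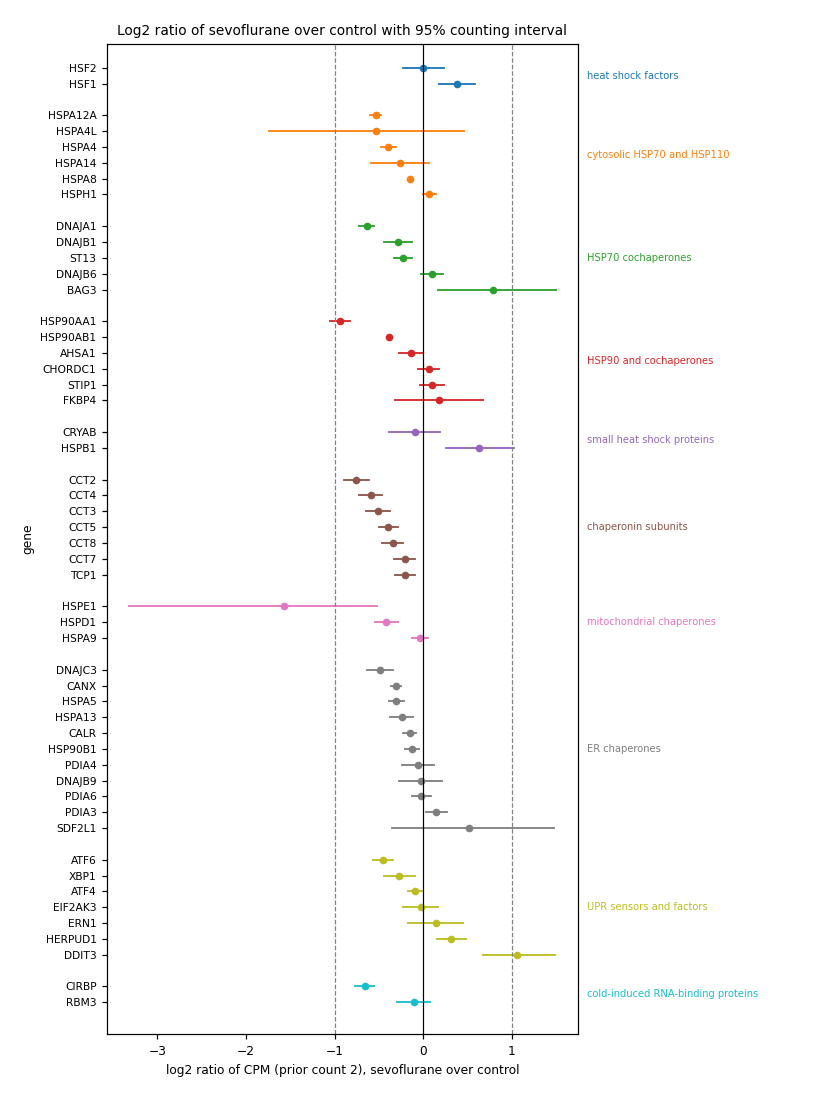
Log2 ratio of sevoflurane over control for each gene (points) with its 95% counting interval (lines), grouped by role; dashed lines mark 2-fold. All 7 chaperonin subunits lie left of 0 with intervals that exclude it, and HSPE1 with 6 sevoflurane reads has the widest interval.

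All 7 chaperonin subunits among the members were lower in the sevoflurane library. Of all genes tested 28.1% were, or 32.8% of those that reached 5 CPM. Neither share was matched to the depth of these subunits. The chaperonin, called TRiC or CCT, is a double ring of related subunits that folds actin and tubulin. The median log2 ratio was -0.40, and the summed reads went from 12550 to 5576, or 747 to 561 CPM, a ratio of -0.41 (-0.46 to -0.37). CCT2 was lowest, with 1557 and 545 reads (92.7 and 54.9 CPM) and a ratio of -0.75 (-0.90 to -0.61). CCT4 followed with 1775 and 696 reads (106 and 70.1 CPM) and -0.59 (-0.72 to -0.46). CCT3 (1576 and 654 reads, -0.51), CCT5 (-0.40) and CCT8 (-0.34) lay between these and the highest pair, CCT7 and TCP1, both at -0.21. CCT5 had the most reads, 2293 and 1030. TCP1 went from 1879 to 962 reads, with an interval of -0.32 to -0.09. CCT6A, a further subunit that was no member and was picked with its values known, had 1469 and 787 reads and lay nearer 0 (-0.14, interval -0.27 to -0.02). The subunits sit in the ring in equal number, yet their transcripts did not shift by the same factor. For every 100 TCP1 reads, CCT2 had 82.9 in CON 1 and 56.7 in SEV 1, a log2 difference of -0.55 (-0.73 to -0.37).

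In the mitochondrion, HSPD1 and HSPE1 encode the 2 parts of the HSP60 and HSP10 folding chamber. HSPD1 went from 1517 to 672 reads (90.3 to 67.7 CPM), a log2 ratio of -0.42 (-0.55 to -0.28). HSPE1 had 35 and 6 reads, or 2.08 and 0.604 CPM, and the lowest ratio of all members, -1.57, with an interval of -3.33 to -0.52. For every 100 HSPD1 reads, HSPE1 had 2.31 in CON 1 and 0.893 in SEV 1, a log2 difference of -1.37 whose interval of -2.92 to -0.10 came close to 0. The 6 sevoflurane reads lie close to the floor of 3 reads, which is 0.302 CPM in that library. The gene name table pairs 3 Ensembl identifiers with HSPE1, so its reads may be split between copies and its ratio is uncertain. HSPA9, the mitochondrial HSP70 that pulls proteins through the inner membrane, had 2721 and 1564 reads and was not distinguishable from equal expression (-0.04, interval -0.13 to 0.05).

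The endoplasmic reticulum chaperones were mostly lower by a small amount. Of 11 genes, 6 were lower, 1 was higher, 4 were not distinguishable, and none was 1.5-fold apart. Of all genes that reached 5 CPM, 32.8% were lower and 30.3% higher. These shares were not matched to the depth of the group. HSPA5, known as BiP, is the HSP70 of the compartment and the usual readout of its stress. It had 3649 control and 1747 sevoflurane reads, or 217 and 176 CPM, with a log2 ratio of -0.30 (-0.39 to -0.22). HSP90B1, the HSP90 of the compartment, was at -0.12 (3801 and 2060 reads). CANX and CALR, the lectins that hold newly made glycoproteins, were at -0.31 and -0.15, with 7576 and 3619 reads for CANX. DNAJC3, an inhibitor of PERK and cochaperone of BiP, had the lowest ratio of the group, -0.49 (-0.64 to -0.34), from 1219 to 514 reads. HSPA13, a short HSP70 of microsomes, was at -0.24. Of the disulfide isomerases, PDIA3 was higher by a small amount (1469 and 962 reads, 0.15, interval 0.03 to 0.27), while PDIA4 was at -0.06 and PDIA6 at -0.02. The gene name table pairs 2 Ensembl identifiers with PDIA3. DNAJB9, an IRE1 target, was at -0.03 with 381 and 221 reads. The intervals of PDIA4, PDIA6 and DNAJB9 included 0. SDF2L1, which works in BiP complexes, had the highest ratio, 0.52, on 24 and 21 reads, and its interval of -0.35 to 1.47 included 0.

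The sensors of unfolded proteins and their factors included the gene above 2-fold. DDIT3 encodes CHOP, a transcription factor induced downstream of PERK and ATF4 that promotes cell death when stress persists. It had 92 control and 115 sevoflurane reads although the sevoflurane library was shallower, or 5.47 and 11.6 CPM. The log2 ratio was 1.06 (0.67 to 1.49), and with the control sampled down to equal depth it was 0.965, just below 2-fold. The kinase PERK, encoded by EIF2AK3, was at -0.03 (-0.23 to 0.17). ATF4, the factor between them, which is controlled mainly through its translation, was at -0.09, with 3004 and 1672 reads, and neither interval excluded equal expression. For every 100 ATF4 reads, DDIT3 had 3.06 in CON 1 and 6.88 in SEV 1, a log2 difference of 1.17 (0.75 to 1.59). Against HSPA5 the difference was 1.38 (0.97 to 1.80).

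The other sensors and factors lay below DDIT3. ERN1, which encodes the sensor IRE1, was at 0.14 (-0.17 to 0.45) and its substrate XBP1 at -0.27 (-0.44 to -0.10), with 840 and 412 reads. Gene counts do not separate the spliced from the unspliced form of XBP1. ATF6, the sensor that is cut in the Golgi, had the lowest ratio of the factors, -0.45 (-0.56 to -0.34), from 2131 to 922 reads. HERPUD1, a membrane protein of the degradation pathway and a target of several arms, was higher with 741 and 546 reads (0.32, interval 0.16 to 0.48). The 7 sensors and factors thus comprised 2 higher, 2 lower and 3 not distinguishable, with a median of -0.03, which is close to the 28.4% higher and 28.1% lower of all genes tested. Grouped by arm after values were seen, the summed log2 ratio was -0.03 (-0.11 to 0.04) for the 3 genes of the PERK arm, where ATF4 supplied 82.0% of the control reads, -0.13 (-0.26 to -0.01) for the 3 of the IRE1 arm, and -0.18 (-0.22 to -0.15) for ATF6 with its targets, 7 genes in all.

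The cold-induced pair differed from each other. CIRBP had 2427 control and 907 sevoflurane reads, or 144 and 91.3 CPM, and a log2 ratio of -0.66 (-0.77 to -0.55). RBM3, which is X-linked, had 694 and 381 reads, or 41.3 and 38.4 CPM, and a ratio of -0.11 (-0.29 to 0.08). For every 100 RBM3 reads, CIRBP had 350 in CON 1 and 238 in SEV 1, a log2 difference of -0.55 (-0.77 to -0.34). The interval thus excluded equal expression for CIRBP and not for RBM3. Body temperatures of the 2 animals were not analysed here.

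**Figure D3:**
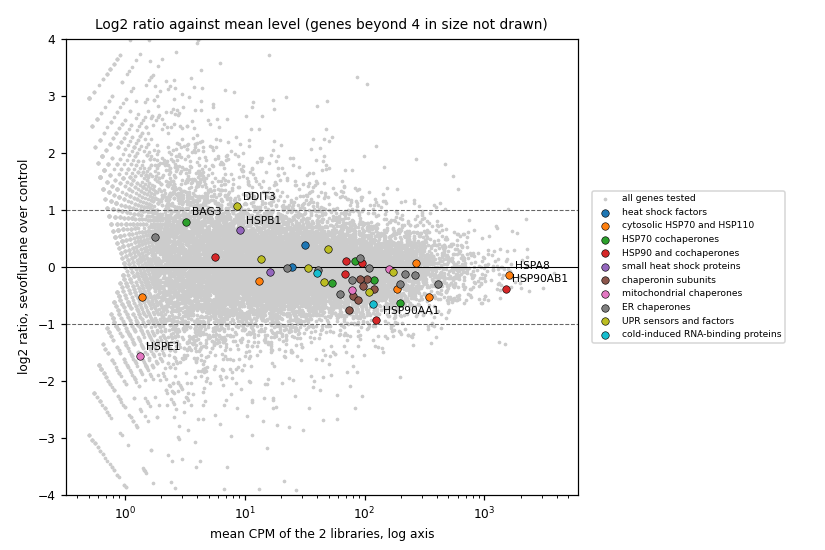
Log2 ratio of sevoflurane over control against mean CPM (log axis) for all genes tested (grey) and the 51 members, coloured by role; dashed lines mark 2-fold, and genes beyond 4 in size are not drawn. DDIT3 and HSPE1 lie outside the dashed lines at low levels, and HSP90AA1 lies just inside.

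Other genes of the same pathways were read from 5 further lists that hold no member. Of 33 tested cytosolic chaperones and cochaperones, 3 were higher by 2-fold or more and 2 were lower, near the 7.56% and 5.47% of all genes tested, and the median was -0.14. At 1.5-fold 4 were higher and 5 lower, against 14.4% and 11.9%. By the interval 7 were higher and 15 lower, against 28.4% and 28.1%, shares not matched for depth. Those between 1.5-fold and 2-fold, looked up afterwards, were HSF4 (0.72), HSPA6 (-0.97, interval -2.18 to -0.07, on 39 and 11 reads), BAG2 (-0.77) and DNAJB5 (-0.61). The largest ratio of that list was that of FKBP5, an HSP90 cochaperone that glucocorticoids induce, with 27 control and 73 sevoflurane reads and a log2 ratio of 2.09 (1.54 to 2.89). HSPB6, a small heat shock protein of muscle and vessel walls, went from 171 to 293 reads (1.52, interval 1.26 to 1.82), and here too 4 of 6 mural markers were higher and their part was not tested. HSPA2, a tissue-restricted HSP70, went from 270 to 330 reads (1.04, interval 0.81 to 1.29). HSBP1, which encodes a small protein that binds the trimer of HSF1 and restrains it, was lower, from 3566 to 744 reads or 212 to 74.9 CPM (log2 interval -1.62 to -1.39). HSPA12B, the endothelial relative of HSPA12A, went from 256 to 72 reads (-1.06, interval -1.47 to -0.69).

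Of 16 tested genes of the integrated stress response, the eIF2 alpha kinases with their substrate and the targets of ATF4, 2 were 2-fold higher and 0 were 2-fold lower. By the interval 4 were higher and 8 lower, and the median was -0.13. Of all genes tested, 7.56% were 2-fold higher and 5.47% lower, and by the interval 28.4% were higher and 28.1% lower. CEBPB, a partner of CHOP, went from 86 to 115 reads (1.16, interval 0.76 to 1.60), and STC2, a secreted glycoprotein, from 17 to 27 reads (1.30, interval 0.50 to 2.39). At 1.5-fold the same list held 3 genes higher and 3 lower, against 14.4% and 11.9% of all genes tested. The higher genes were CEBPB, STC2 and PPP1R15A. PPP1R15A, looked up with its value known, went from 362 to 390 reads (0.86, interval 0.66 to 1.08). The 3 genes lower at 1.5-fold, looked up after their values were seen, are ATF4 targets of amino acid synthesis. They were ASNS, which makes asparagine (-0.76), PSAT1 of serine synthesis (-0.71) and CTH, which makes cysteine (-0.73). The rest were also looked up with their values known. Short of 1.5-fold, the ATF4 target CHAC1 was lower (190 and 76 reads, -0.55, interval -0.97 to -0.17), as was PHGDH, also of serine synthesis (-0.39). The substrate EIF2S1 (-0.31) and the kinases EIF2AK2 (-0.26) and EIF2AK4 (-0.16) were lower too. SLC7A11 of the same list was higher (0.26). Of 33 other endoplasmic reticulum genes, 1 was 2-fold higher and 0 lower, against 7.56% and 5.47% of all genes tested, and the median was -0.04. The higher gene was the disulfide isomerase PDIA5, with 94 and 113 reads (1.01, interval 0.62 to 1.43). Of 12 mitochondrial chaperones and proteases (median -0.20) and 6 prefoldin subunits (median -0.02), which pass clients to the chaperonin, 0 were 2-fold apart. At 1.5-fold, 1 mitochondrial gene was lower and 0 were higher, and 1 prefoldin was lower and 1 higher. By the interval, 6 of the 12 mitochondrial genes were lower and 0 higher. Of the 6 prefoldins 2 were lower and 1 higher, and of the 33 endoplasmic reticulum genes 7 were lower and 5 higher. These counts were not matched for depth.

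**Figure D4:**
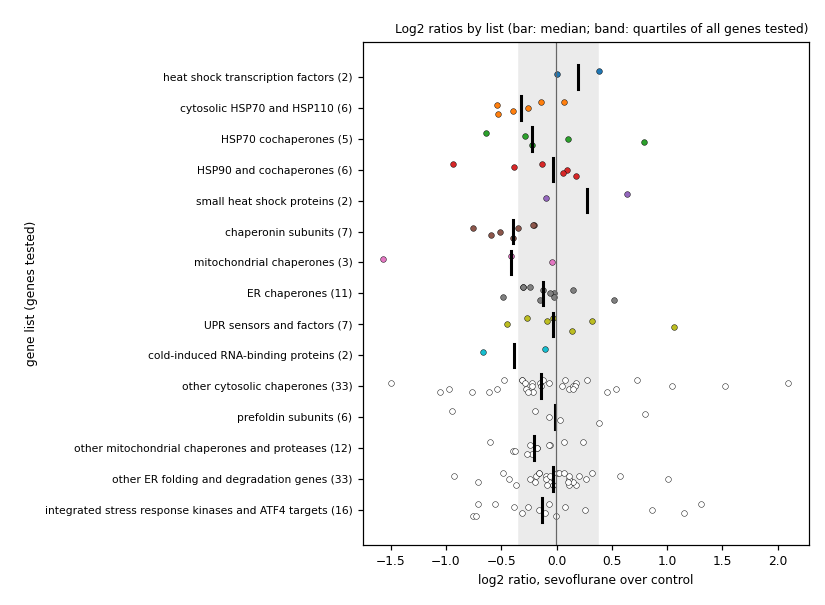
Log2 ratio of sevoflurane over control by list, for the 10 groups of members (colours) and the 5 further lists (white); points are genes, black bars medians, and the grey band spans the quartiles of all genes tested. The medians of the chaperonin subunits (-0.40) and the mitochondrial chaperones (-0.42) lie at the left, and the sensors and factors (-0.03) near 0. The mitochondrial median is of 3 genes and is -0.21 without HSPE1, at a minimum of 5 CPM.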

How the data were processed

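Prefrontal cortex RNA of 1 control macaque and 1 exposed to sevoflurane was sequenced. The count values deposited by the authors are unnormalized whole numbers, 1 column per library. The submitters' processing notes name HISAT2 2.0.4. The counting tool, genome build and annotation are not given in the sources used here. Libraries were assigned to groups by their titles.

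TMM factors (edgeR 4.0.16, R 4.3.3) used the genes that reached 1 CPM in CON 1 or SEV 1. Log2 ratios used a prior count of 2, and 95% intervals came from exact Clopper-Pearson limits (scipy 1.17.1, numpy 2.4.6, pandas 2.3.3, Python 3.11.15, matplotlib 3.10.9). Reads carry no stated molecular identifiers, so intervals and the floor of 3 reads cover counting error only. Higher and lower mean that the interval excluded equal expression, and a gene was counted at 2-fold or 1.5-fold when its ratio also passed that size. Ratios between genes within a library had exact conditional intervals of the odds ratio, and the pairs were chosen after values had been seen. The quasi-likelihood test of edgeR needs replicates, so none was run and p-values are not given.

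The members and lists were chosen with earlier results of these data known. Every member was to be named, with reads for those past 1.5-fold, for the transcription factors and cold-induced genes, and for the most abundant, highest and lowest of each group. Of the further lists, genes past 2-fold were named, and marker lists were given as sums and counts. Of the marker lists, the 8 microglial genes summed to 233 and 258 CPM, the 4 meningeal genes to 203 and 344 CPM, and the 4 choroid plexus genes, 1 of them at 0 in the control, to 11.6 and 8.66 CPM. A ratio or sum under an alternative was called the same within the counting interval of the main value, and a median within the median lower and upper limits of its genes. Symbols came from the table, and 51 of 53 matched the RefSeq gene table of assembly T2T-MMU8v2.0, used only for names and neighbours. Levels per transcript length and promoter motifs, which had been planned, were not run. The procedure was tested on simulated data. Other settings tried were size factors of DESeq2 1.42.0, upper-quartile factors, library totals, a prior count of 0.5, minimums of 1 read or 5 CPM, 1 draw of the control reads at the depth of SEV 1, 1.5-fold and 4-fold thresholds, and a stricter interval.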

Additional observations from a re-analysis of the deposited data

How the results depend on the processing

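The scalings moved the median of all genes by at most 0.027 on the log2 scale, and all 404 values of single genes under the alternatives stayed within their counting intervals. Much of this was fixed in advance. The stricter interval leaves each ratio as it is, and a scaling shifts all genes by nearly the same small amount. The sign changed in 6 of the 404 values, for HSF2, DNAJB9 and PDIA6, none of which was distinguishable from equal expression. The count of genes at least 2-fold higher was 3 at 1.5-fold, 0 at 4-fold and 0 with the control sampled down, where DDIT3 came to 0.965. The count at least 2-fold lower was 6 at 1.5-fold and 0 at 4-fold, 0 with a minimum of 5 CPM, which HSPE1 does not pass, and 0 with the stricter interval, which for HSPE1 included equal expression. HSPE1 ranged from -1.72 to -1.54 and HSP90AA1 from -0.96 to -0.91. Without HSPE1, at a minimum of 5 CPM, the mitochondrial chaperones had a median of -0.21. With library totals the summed level of the cytosolic HSP70 and HSP110 genes was at -0.17 in place of -0.20, and that of all members at -0.23 in place of -0.26. CCT4 fell short of 1.5-fold with library totals (-0.56), with upper-quartile factors (-0.58) and with a minimum of 5 CPM (-0.57). BAG3 kept that size, but its interval included equal expression with the control sampled down (0.60) and with the stricter interval. By the interval alone, 4 genes were higher and 23 lower with the stricter interval, which lost BAG3, HSPH1, PDIA3, HSP90B1, HSPE1 and XBP1. With a minimum of 1 read the counts were 6 and 28, and with the control sampled down 6 and 26, and HSPH1 was lost in both. With a minimum of 5 CPM, 47 members were tested, 2 of them 1.5-fold higher and 4 lower.

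No paired analysis was possible because CON and SEV have 1 animal apiece, and no replicate was left out for the same reason. Genes with under 50 control reads (HSPA4L, HSPE1, BAG3 and SDF2L1) are limited by depth.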
